A study of Arabidopsis thaliana with 4 samples.

Results

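Fimbrins are proteins that bind actin filaments and tie them side by side into bundles. Each carries calponin homology domains arranged as paired actin-binding units, which lets 1 protein hold neighbouring filaments together. In plants, actin bundles carry organelle traffic and help to place nuclei, and in young endosperm, where nuclei divide in a shared cytoplasm, actin filaments and microtubules organise the space around each nucleus. The family described here is a set of 5 fimbrin loci of Arabidopsis thaliana: AT2G04750, AT5G48460, AT5G55400, AT4G26700 (FIM1, which cross-links actin filaments) and AT5G35700 (FIM5, which bundles actin in pollen tubes). AT2G04750 was selected on its measured ratio, which is among the highest of the data set, so its values are given as a description without a test. The other members were included because they belong to its family. Of the 5 loci, 3 had a named probe with a value on all 4 arrays, against 10480 named genes measured in this way overall. FIM1 and FIM5 had no named probe and were not analysed here.

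Endosperm, the tissue that feeds the embryo, was collected by laser microdissection from sections of siliques at 4 days after pollination in 3 replicate samples. Each sample was hybridised on 2-colour arrays against 1 common RNA, which came from silique tissue scraped from a single slide after the dissection, although the sample descriptions call it whole silique RNA. The sources used here give neither the strain and genotype nor whether the replicates stem from separate plants. The p-values therefore cover the spread between these 3 samples, which may be technical. Endosperm carried Cy3 in replicate 1 and Cy5 in replicate 3, and replicate 2 was hybridised with both dye orientations and counted as 1 sample. The reference was a single RNA whose own spread is not in the test, and how much endosperm it still held is not given in the labels.

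The deposited values were ratios of the channels, taken as log2, with 21829 to 23171 probes measured per array, of which 19449 had a value on all 4 arrays. Pearson's r between arrays, across probes that are not independent replicates, lay between 0.87 and 0.92. The numerator is not stated in the sources used here. Endosperm is the likely one, because the median of 9 measured endosperm marker genes was above 0 on each array (1.72 on replicate 1, 2.09 and 2.28 on the Cy3 and Cy5 arrays of replicate 2, and 1.80 on replicate 3), and 8 of these genes were called higher. If the reference were the numerator, every direction below would turn round. ALC, a regulator of the silique's opening zone and the 1 measured silique wall marker, was lower in endosperm at -2.40 ± 0.22. Of 3 measured seed coat markers 0 were called higher and 1 (INO) was lower, with BAN and DFR not passing. The 1 measured embryo marker (BBM) was narrowly called lower at -0.76 ± 0.69 (limma, Benjamini-Hochberg adjusted p = 0.0486). Its ratio was -1.54 in replicate 1 and between -0.54 and -0.10 on the other arrays. The pollen list had 3 of 5 measured genes higher (VGD1, ACT12 and PLIM2a), VGDH1 lower and PLIM2b not passing, and ACT12, PLIM2a and PLIM2b also stand in the actin lists. Its median was 0.91 in replicate 1, 0.42 and 0.08 on the Cy3 and Cy5 arrays of replicate 2, and 0.39 in replicate 3. Over all probes 32.0% were called higher and 25.5% lower, which is the background for these marker counts.

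The measured fimbrin loci did not share a direction. AT2G04750 lay far above the reference in endosperm, AT5G48460 lay slightly above it, and AT5G55400 lay below it. Of the 2 members that were tested, 1 was called higher and 1 lower (limma, Benjamini-Hochberg adjusted p under 0.05). These calls are to be read against a background in which 57.5% of all probes were called, 32.0% higher and 25.5% lower, so a call by itself does not set a fimbrin locus apart. In tissue RNA of this kind, more cells that hold a transcript and more transcript per cell cannot be told apart.

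**Figure D1:**
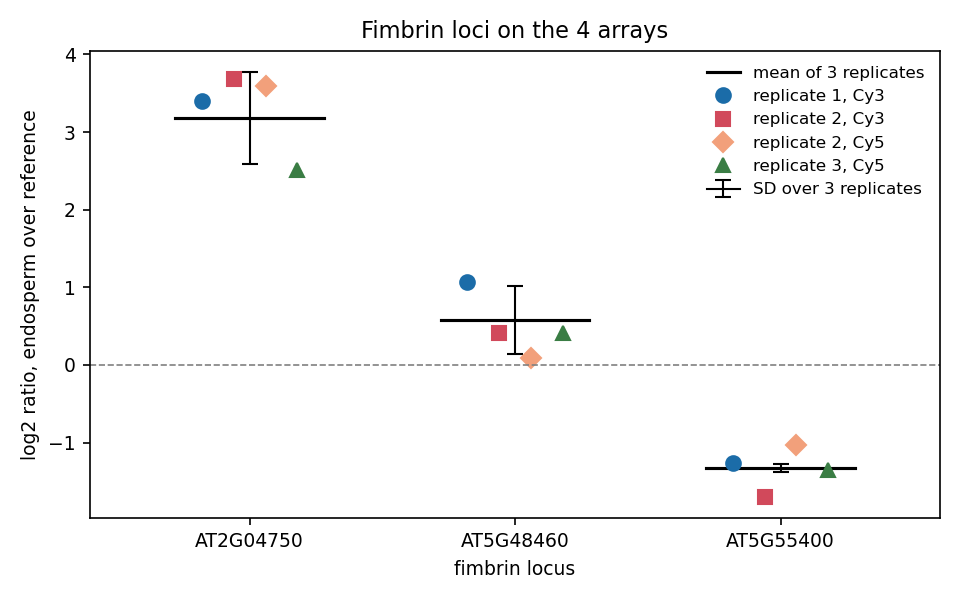
Log2 ratio of endosperm over reference (vertical axis) for the 3 measured fimbrin loci, with 1 point per array, the mean of the 3 replicates as a horizontal bar and the SD over replicates as a whisker. All arrays put AT2G04750 at 2.51 or more and AT5G55400 at -1.04 or less, and AT5G48460 runs between 0.09 and 1.07.

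AT2G04750 had log2 ratios of 3.39 in replicate 1, 3.68 and 3.59 on the Cy3 and Cy5 arrays of replicate 2, and 2.51 in replicate 3. Replicate 3 was the lowest, and the arrays of replicate 2 differed by only 0.10 from each other. The mean was 3.18 ± 0.59 (SD, n = 3), which corresponds to 9.06-fold more transcript in endosperm than in the reference. Its SD exceeded that of 92.8% of probes, against a median SD of 0.23 over all probes. AT2G04750 ranked 7th from the top among the 19449 probes by its mean ratio and 6th among the named genes. By array its rank from the top was 10 in replicate 1, 3 and 11 on the Cy3 and Cy5 arrays of replicate 2, and 93 in replicate 3. The named genes next to it in the order of means were AT5G63250 at 3.20 above and AT4G26470 at 3.14 below, and both differ from it by much less than its SD. Without replicate 3 its mean was 3.52, and without replicate 2 it was 2.95.

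AT5G55400 had log2 ratios of -1.26 in replicate 1, -1.70 and -1.04 on the Cy3 and Cy5 arrays of replicate 2, and -1.35 in replicate 3. All arrays lay below the reference. The mean was -1.33 ± 0.06 (SD, n = 3), a 2.51-fold lower level in endosperm, with a limma adjusted p of 0.000387 and a 95% interval of the mean from -1.62 to -1.04. The SD between replicates was smaller than that of all but 5.13% of probes. It does not show the whole measurement error, because the dye-swapped arrays of replicate 2, which hold the same RNAs, differed by 0.66, more than for 92.2% of probes. AT5G55400 ranked 1943rd from the bottom of the 19449 probes, so a ratio this low was common on these arrays. It was also called lower when the null was a 1.5-fold change (limma adjusted p = 0.00354), a test that 25.1% of all probes passed.

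AT5G48460 had log2 ratios of 1.07 in replicate 1, 0.41 and 0.09 on the Cy3 and Cy5 arrays of replicate 2, and 0.41 in replicate 3. Replicate 1 stood above the other replicates, and the Cy5 array of replicate 2 was close to the reference. The mean was 0.58 ± 0.44 (SD, n = 3), or 1.49-fold higher in endosperm, with a limma adjusted p of 0.0413 and a 95% interval from 0.11 to 1.04. This call rests on replicate 1, since the mean was 0.33 without it (limma adjusted p = 0.0812). It was also lost with each array centred on its median (0.49, limma adjusted p = 0.0632). The arrays with Cy5-labelled endosperm alone gave 0.25 (limma adjusted p = 0.204). On the Cy3 arrays alone the mean was 0.74 (limma adjusted p = 0.0223). By its mean AT5G48460 ranked 5130th from the top of all probes.

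**Figure D2:**
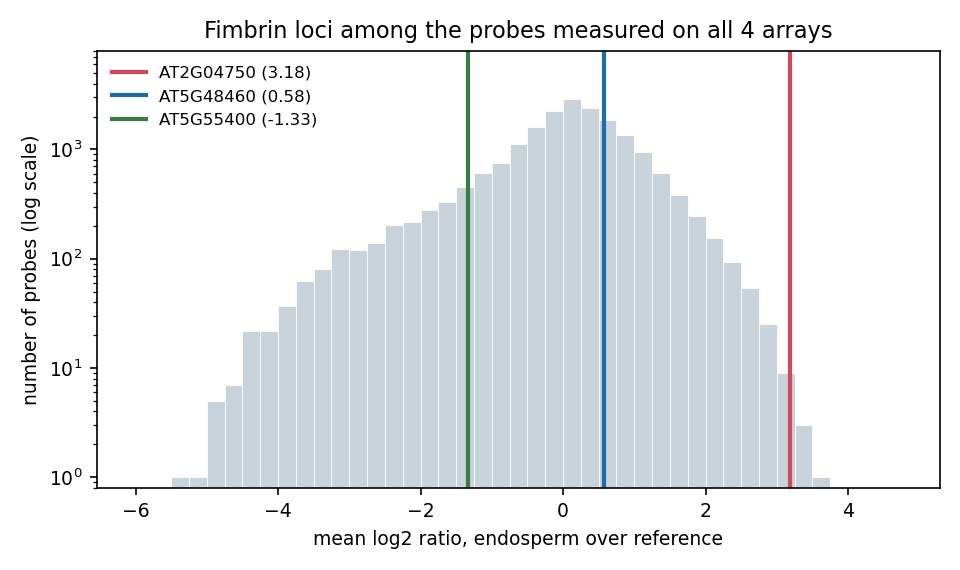
Number of probes (vertical axis, log scale) by mean log2 ratio of endosperm over reference (horizontal axis, bins of 0.25) for the 19449 probes measured on all 4 arrays, with vertical lines at the 3 fimbrin loci. AT2G04750 at 3.18 stands in the thin upper tail, whereas AT5G48460 at 0.58 and AT5G55400 at -1.33 lie in the body of the distribution.

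The members were then set against each other within replicates, which removes what the probes of an array share. The ratio of AT5G48460 exceeded that of AT5G55400 by 2.34, 1.62 and 1.76 in replicates 1, 2 and 3. The mean difference was 1.91 ± 0.38 (SD, n = 3), a 3.75-fold unequal shift between the 2 transcripts. Its sign held in 3 of 3 replicates, and an exact two-sided sign-flip permutation test gave p = 0.25. That is the smallest p this test can give with 3 replicates, so it cannot reach 0.05 whatever the size of the difference. The ratio of AT2G04750 exceeded that of AT5G48460 by 2.32, 3.38 and 2.10 in the 3 replicates and that of AT5G55400 by 4.66, 5.004 and 3.86. The replicates of AT2G04750 did not overlap those of either relative, which its choice for height made near certain. Even its lowest array, at 2.51 in replicate 3, ranked 93rd from the top of the probes. The gaps to AT2G04750 are therefore a description and were not tested. Between AT5G48460 and AT5G55400 the gap was larger than either gene's SD between replicates (0.44 and 0.06).

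The dye swap of replicate 2 compares both orientations on the same RNAs. Between the arrays of replicate 2, the Cy5 ratio minus the Cy3 ratio was -0.10 for AT2G04750, -0.32 for AT5G48460 and 0.66 for AT5G55400. Over all probes this difference had an SD of 0.42, so only that of AT5G55400 was larger than 1 SD. On the Cy3 arrays alone the means were 3.54, 0.74 and -1.48 for AT2G04750, AT5G48460 and AT5G55400, and on the Cy5 arrays alone they were 3.05, 0.25 and -1.20. These means also differ in their samples, since the Cy3 pair holds replicate 1 and the Cy5 pair replicate 3, which had the lowest ratio of AT2G04750. AT5G48460 lay above AT5G55400 in both orientations. The first place of AT2G04750 in both follows from its choice.

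**Figure D3:**
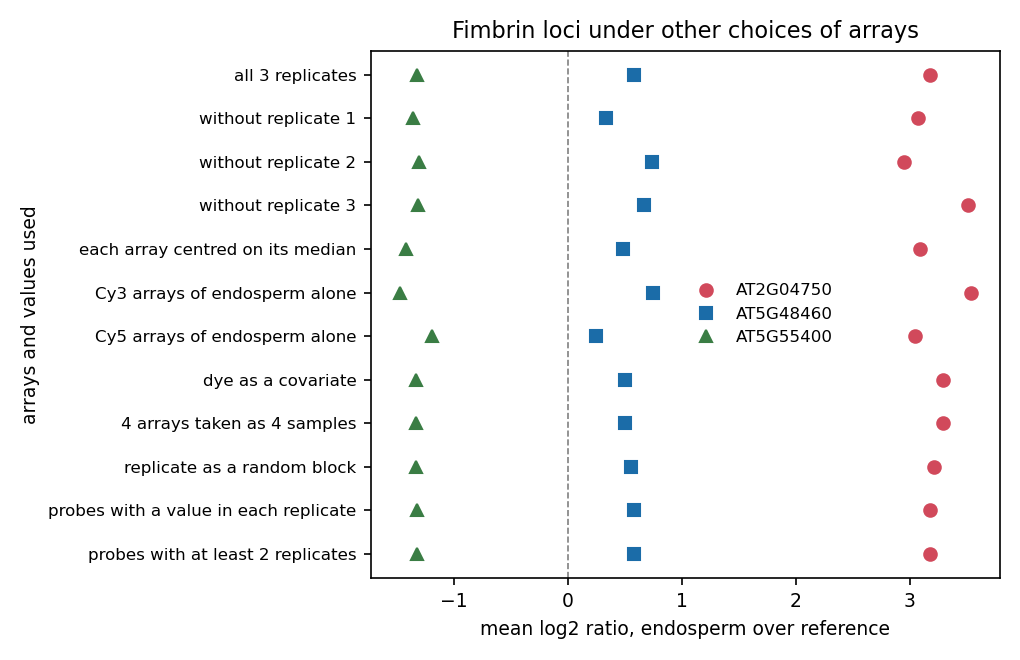
Mean log2 ratio of endosperm over reference (horizontal axis) for the 3 measured fimbrin loci under each choice of arrays and values (rows). AT2G04750 stays between 2.95 and 3.54 and AT5G55400 between -1.48 and -1.20, while AT5G48460 ranges from 0.25 to 0.74.

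Genes with the nearest log2 ratios over the 4 arrays were found by the root mean square difference among 10480 named genes. This measure scores closeness in level, not in pattern alone. For AT2G04750 these were AT5G63250 (root mean square difference 0.23), AT2G20170 (0.26), AT5G05030 (0.28), AT3G25280 (0.35) and AT4G04580 (0.41). AT5G63250 was the only named gene within 0.25 of it. Around AT5G48460 346 genes lay within 0.25. The nearest were AT5G16140 (0.04), the myosin gene XI-I (0.05), AT3G57470 (0.07), AT4G33690 (0.07) and AT3G24080 (0.07), which also had their highest ratio in replicate 1. Around AT5G55400 39 genes lay within 0.25, and the nearest were AT1G71140 (0.12), AT5G39110 (0.14), AT5G65500 (0.15), AT5G21910 (0.16) and AT1G03520 (0.18). The counts within 0.25 depend on how many genes lie at each height. AT2G04750 was chosen from the thin upper tail, so its low count follows from that choice and does not mark its profile as unusual. Likeness here covers only 4 arrays of 3 samples.

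The genes beside AT2G04750 on the chromosome are given as a description. Because AT2G04750 was chosen for its height, almost any other gene lies below it. In the RefSeq gene order the 3 measured genes before it, starting with the adjacent one, were AT2G04740 at -0.07 ± 0.16, AT2G04730 at 0.05 ± 0.20 and AT2G04720 at 0.27 ± 0.17, and 0 of them passed (limma adjusted p = 0.661, 0.763 and 0.128). After it came the adjacent AT2G04760 at -0.27 ± 0.34 (limma adjusted p = 0.212), then AT2G04795 at -0.89 ± 0.63 (0.023) and AT2G04830 at 0.45 ± 0.20 (0.0297). The highest mean among these 6 genes was 0.45, against 3.18 for AT2G04750, a gap that the choice of AT2G04750 made near certain.

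Other genes of the actin cytoskeleton were read from the same fit, by lists of loci. Over actins, other bundling proteins, formins and myosins, 19 of 59 listed genes were measured. Of these, 9 rose, 4 fell and 6 missed the threshold. Their median log2 ratio was 0.60, against 0.11 over all probes, named or not. By array it was 0.58 in replicate 1, 0.48 and 0.17 on the Cy3 and Cy5 arrays of replicate 2, and 0.44 in replicate 3. The share called was 68.4%, against 57.5% of all probes (32.0% higher and 25.5% lower). With 19 genes, from lists chosen with earlier results of these data known, this does not set them apart. Against a fold change of 1.5, 3 of the 19 were called, against 25.1% of all probes. No gene of the ARP2/3 and SCAR/WAVE list (0 of 20), of profilins, actin-depolymerising factors and capping proteins (0 of 19) or of ROP GTPases (0 of 11) had a named probe.

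Actin itself, the filament that fimbrins bundle, was represented by 2 of 9 listed genes, and both were higher in endosperm, as were 32.0% of all probes. ACT12, an actin known from pollen, had log2 ratios of 1.28 in replicate 1, 0.94 and 1.52 on the arrays of replicate 2, and 0.997 in replicate 3, with a mean of 1.17 ± 0.15 (2.25-fold, limma adjusted p = 0.000738). ACT11, an actin of reproductive tissues, had 0.58 in replicate 1, 0.89 and 0.78 on the arrays of replicate 2, and 0.82 in replicate 3, with a mean of 0.75 ± 0.14 (1.68-fold, limma adjusted p = 0.00374). Every array lay above the reference for both genes. Actin genes resemble each other in sequence, as fimbrin genes do, and cross-hybridisation between relatives was not tested.

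Of the other proteins that bundle actin, 5 LIM domain genes were measured, while villins and SCAB1 had no named probe. PLIM2a, of the pollen type, was higher at 0.92 ± 0.25 (limma adjusted p = 0.0029). WLIM1, of the widely expressed type, was lower at -0.81 ± 0.23 (limma adjusted p = 0.00396), and WLIM2b was lower at -0.41 ± 0.14 (limma adjusted p = 0.0328). The call of WLIM2b was lost without any 1 of the replicates (limma adjusted p = 0.0706 without replicate 1, 0.0891 without replicate 2 and 0.134 without replicate 3). PLIM2b and WLIM2a did not pass, at 0.14 ± 0.07 and -0.05 ± 0.13. The share called among these 5 genes was 60.0%, against 57.5% of all probes (32.0% higher and 25.5% lower). Ratios on both sides of the reference therefore do not set these bundling proteins apart.

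Formins start and lengthen actin filaments. The list of their loci comes from general knowledge, and the gene tables used here give the 8 measured loci no formin name. Of these 8, 4 rose, 2 fell and 2 missed the threshold, and their median was 0.46. The share called was 75.0%, against 57.5% of all probes (32.0% higher and 25.5% lower). With only 8 genes this does not set the list apart. AT1G42980 was highest, with 3.12 in replicate 1, 2.14 and 2.76 on the arrays of replicate 2, and 1.83 in replicate 3. Its mean was 2.46 ± 0.65 (5.52-fold, limma adjusted p = 0.000589), which made it the listed actin gene nearest to AT2G04750 in height. AT2G43800 was higher at 0.69 ± 0.16 (limma adjusted p = 0.00547). AT5G07740 was lower at -1.47 ± 0.30 (limma adjusted p = 0.000666), close to AT5G55400, and AT5G48360 was lower at -0.66 ± 0.14 (limma adjusted p = 0.00591). The other loci called higher were at 0.60 and 0.72. AT3G07540, at 0.60, lost its call without replicate 2 (0.56, limma adjusted p = 0.0686).

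Myosins move cargo along actin, and 4 of 17 listed genes were measured. Of these 4, 2 were called higher and 0 lower. Over all probes 57.5% were called (32.0% higher and 25.5% lower). With only 4 genes the calls do not set the list apart. XIE was at 0.66 ± 0.38 (limma adjusted p = 0.0198) and XI-I, a class XI myosin that acts in nuclear movement, at 0.62 ± 0.45 (limma adjusted p = 0.034), both higher. Neither call held without replicate 1 (limma adjusted p = 0.0571 for XIE and 0.0616 for XI-I), and that of XIE was also lost without replicate 2 (limma adjusted p = 0.114). The call of XI-I was lost too with each array centred on its median (limma adjusted p = 0.0508). VIIIB was at 0.91 ± 0.98 and did not pass (limma adjusted p = 0.071), with 1.90 in replicate 1 and 0.03 and -0.17 on the arrays of replicate 2, and its value turned on single replicates. Without replicate 1 the mean was 0.41 (limma adjusted p = 0.21), and without replicate 2 it was 1.40 and passed (limma adjusted p = 0.00968). XIJ did not pass either, at 0.28 ± 0.30. For VIIIB and XI-I, as for AT5G48460, replicate 1 gave the highest ratio. The same held for PLIM2a, VGD1 and the formin-list locus AT1G42980, but not for XIE and XIJ. A highest ratio in replicate 1 therefore does not set these genes apart.

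**Figure D4:**
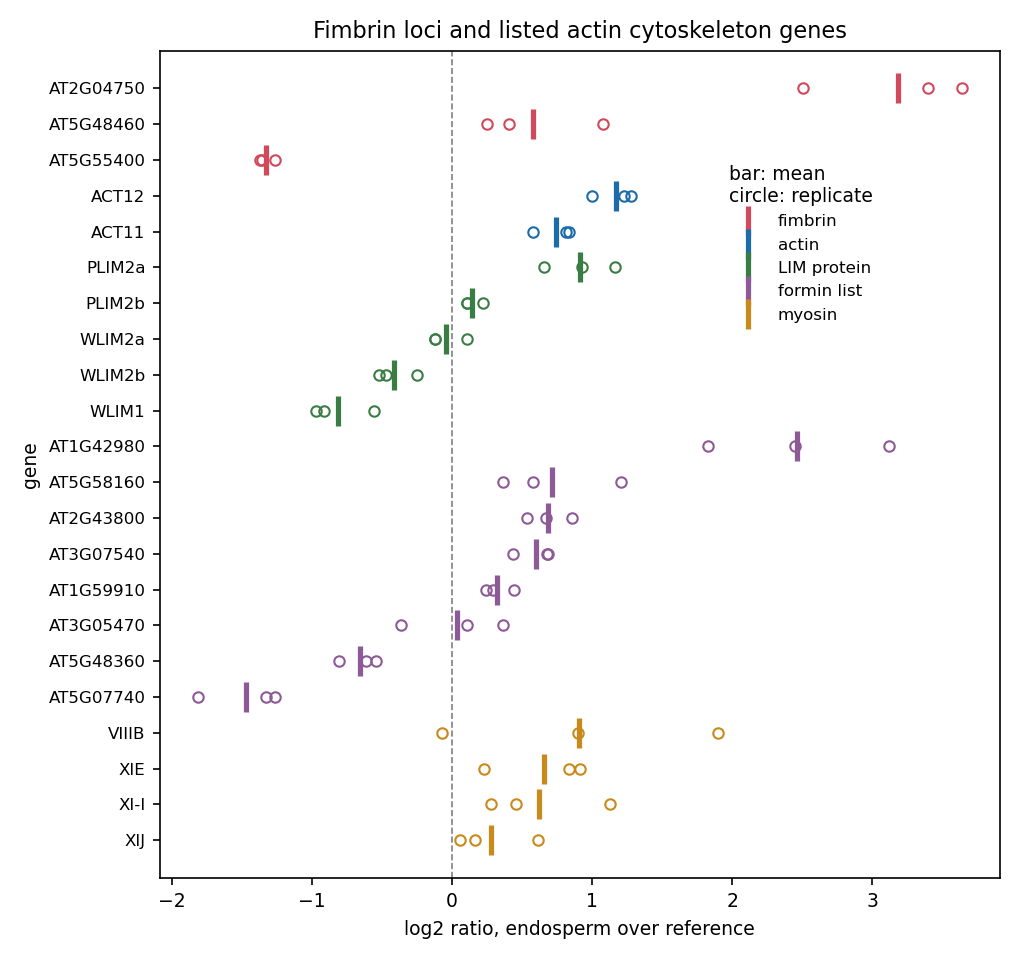
Log2 ratio of endosperm over reference (horizontal axis) for the fimbrin loci and the 19 measured genes of the actin cytoskeleton lists (rows, coloured by list), with 1 open circle per replicate and a bar at the mean. AT2G04750 has the highest mean of all genes shown (3.18), followed by AT1G42980 (2.46), and AT5G07740 (-1.47) and AT5G55400 (-1.33) have the lowest.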

How the data were processed

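Per the labels' protocols, RNA was amplified in 2 rounds of in vitro transcription from 100 ng and coupled to Cy dyes through amino-allyl nucleotides. Amplification can change proportions between transcripts. The authors deposited 1 log ratio per probe and array, taken here as log2. The sources used here do not give the scanner, background correction, normalization, log base or numerator. Dim spots could not be filtered, as there are no intensities. Precision is limited by the number of arrays.

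Probes were named through the platform's gene table and matched to RefSeq genes of assembly TAIR10.1: of 26912 probes 14539 had 1 gene, 0 had several and 12373 had none, and 14485 matched. Each listed gene had at most 1 measured probe. The arrays of replicate 2 were averaged, and limma 3.58.1 (R 4.3.3) compared the mean ratio of 3 replicates with 0 (eBayes, two-sided, Benjamini-Hochberg over 19449 probes). The family, gene lists and naming rule (all members, up to 4 genes per list by smallest p, short lists in full, the 5 nearest genes, 3 flanking genes per side) were chosen with earlier results of these data known. Alternatives left out replicates, changed centring, dye, blocking, missing values, prior and null.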

Additional observations from a re-analysis of the deposited data

How the results depend on the processing

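AT5G55400 stayed lower and called under all 13 alternatives (log2 ratio -1.48 to -1.20), and AT2G04750, which was not tested, stayed between 2.95 and 3.54. The 1.5-fold null, the robust prior and the changed handling of missing values cannot move these means. They left AT2G04750 at 3.18. Of the 2 tested fimbrin loci, 2 were called with all arrays, and 1 to 2 when each replicate was left out in turn. The number was 1 with each array centred on its median, for Cy5-labelled endosperm alone and with a 1.5-fold change as the null, since AT5G48460 lost its call there; the cause was not tested. The difference between AT5G48460 and AT5G55400 was 1.44 on the Cy5 arrays alone, against 1.91 with all arrays. Against a fold change of 1.5, which is a stricter question, 4885 in place of 11188 probes were called (25.1% in place of 57.5%). Of the 19 measured actin cytoskeleton genes, 3 in place of 13 were called. That share lies below the 25.1% of all probes, whereas 13 of 19 lay above 57.5%. WLIM2a, not called, was at 0.0029 on the Cy3 arrays alone, against -0.05 with all. AT3G05470, not called, was at 0.03 with all arrays, -0.0565 with arrays centred, and between -0.13 and 0.23 with each replicate left out in turn. Centring moved all ratios down by 0.09. duplicateCorrelation gave no value with 1 pair of arrays, so the random block used a moment estimate of 0.63. Each log ratio already pairs endosperm with the reference on its array. The reference had no replicates of its own, since 1 reference RNA served all arrays. Among the genes, only members were compared with each other within replicates. The probe and array numbers, without intensities, do not show which ratios come from dim spots.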
